A study of Mus musculus with 6 samples.

Results

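Collagens outside the fibrillar class were followed in TGF-β-treated mouse cardiac fibroblasts after deletion of *Tet3*. The 10 genes described here code for the microfibrillar collagen VI (*Col6a1*, *Col6a2*, *Col6a3*), the anchoring-fibril collagen VII (*Col7a1*), the network-forming collagen VIII (*Col8a1*), the fibril-associated or FACIT collagens XII, XIV and XVI (*Col12a1*, *Col14a1*, *Col16a1*) and the multiplexins XV and XVIII (*Col15a1*, *Col18a1*). They were chosen as a family, with earlier results of these data known, and found by gene symbol. Each symbol matched 1 of the 22063 rows of the gene table, and all 10 had enough counts to be among the 12862 genes tested. RNA was sequenced from 6 libraries of primary cardiac fibroblasts of Tet3 f/f mice, in which loxP sites flank part of *Tet3*. The 3 control libraries (GFP) came from cells given an adenovirus for green fluorescent protein, and the 3 knockout libraries (CRE) from cells given an adenovirus for Cre recombinase, which cuts out the floxed DNA. Both groups received TGF-β, the cytokine that turns fibroblasts into matrix-producing myofibroblasts, so all values describe treated cells. The study calls the replicates biological, but the sources do not give the age or sex of the mice or say whether each replicate was a separate animal or a separate culture, and p-values therefore measure only the spread between these libraries.

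Collagen VI chains assemble inside the cell into tetramers that form beaded microfibrils around cells. FACIT collagens lie on the surface of collagen I and II fibrils and link them to other matrix molecules. Multiplexins carry heparan or chondroitin sulfate chains, sit next to basement membranes and release antiangiogenic fragments from their C-terminal ends, endostatin in the case of collagen XVIII. Collagen VIII forms sheet-like networks in vessel walls and injured hearts, and collagen VII anchors the epidermal basement membrane in skin. In scarred myocardium fibroblasts deposit several of these proteins beside the fibrillar collagens.

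*Tet3* itself fell from 57.1 ± 6.88 CPM (SD, n = 3) to 34.7 ± 1.17 CPM (SD, n = 3), which is 60.8% of the GFP mean. CPM is the normalized read count, the count scaled to the effective library size. Total counts were between 17002126 and 20343590 per library, and the members had between 245 and 44646 counts per library. Within the GFP group, replicate 1 differed most from the others. Of the 8 fibroblast markers listed, none was under 1 FPKM (the authors' length-corrected level, fragments per kilobase of transcript scaled to library depth) in every library. Of 7 cardiomyocyte markers 6 stayed under 1 FPKM in all libraries, *Myh6* at 0 counts, and the list summed to between 0.654 and 1.13 FPKM in GFP and between 1.72 and 2.86 FPKM in CRE. The sum differed mainly by *Nppb*, the 1 cardiomyocyte marker with enough counts to be tested, which was higher in CRE (1.51 FPKM on average, against 0.136 FPKM in GFP, edgeR adjusted p of 0.000565). Macrophage markers (3 of 5 tested lower) summed to between 35.0 and 39.5 FPKM in GFP and between 23.1 and 24.98 FPKM in CRE. Most of this sum was *Lyz2* and *Cd14*, at means of 16.9 and 16.2 FPKM in GFP and 11.7 and 8.64 FPKM in CRE. *Ptprc* and *C1qa* had too few counts to be tested, and *Csf1r* and *Cd68* did not pass. Of the Schwann and mesothelial markers, 1 of 2 and 1 of 4 tested were lower, and 2 mesothelial ones higher. Their part in the results was not tested. Endothelial markers were present, as described with the multiplexins.

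At an adjusted p under 0.05 (edgeR quasi-likelihood test, Benjamini-Hochberg over all tested genes), 7 of the 10 collagen genes were lower in CRE, 1 was higher and 2 did not pass. Over all tested genes 51.2% passed this threshold, 25.7% as lower and 25.5% as higher (3306 and 3277 genes). With libraries scaled by size alone the split was 2083 lower and 5529 higher, the median of all genes moved up by 0.16 on the log2 scale, and 6 of the 10 collagen genes were lower. The median log2 fold change of the 10 genes was -0.52, against 0.01 over all tested genes. *Col14a1* and *Col15a1* fell furthest, to 26.8% and 36.4% of their GFP means. *Col7a1* rose to 253.7% of its GFP mean. For 8 of the 10 genes the CRE and GFP libraries did not overlap, 7 below and 1 above, against 59.6% of all tested genes without overlap, 29.6% below and 30% above. The exact permutation test over 3 against 3 libraries cannot go below p = 0.1, which it gave for each of these 8.

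**Figure D1:**
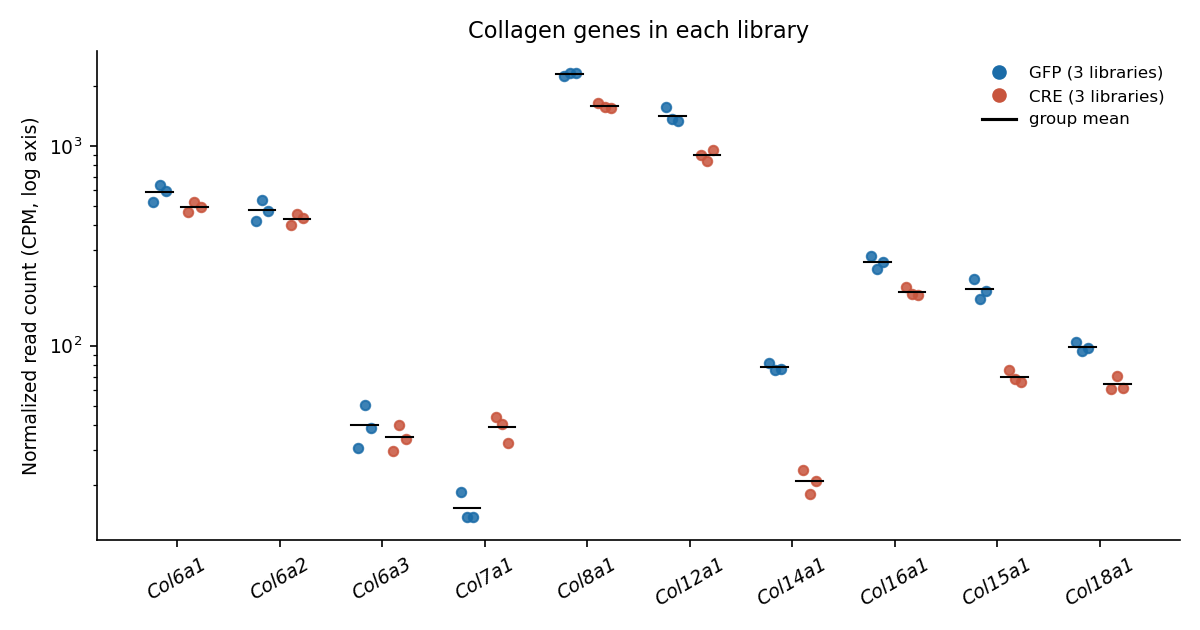
Normalized read counts (CPM, log axis) of the 10 collagen genes, 1 point per library, GFP in blue and CRE in red, with a line at each group mean of 3 libraries. The CRE points lie apart from the GFP points for 8 genes, below them for 7 and above them for *Col7a1*, while those of *Col6a2* and *Col6a3* overlap.

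**Figure D2:**
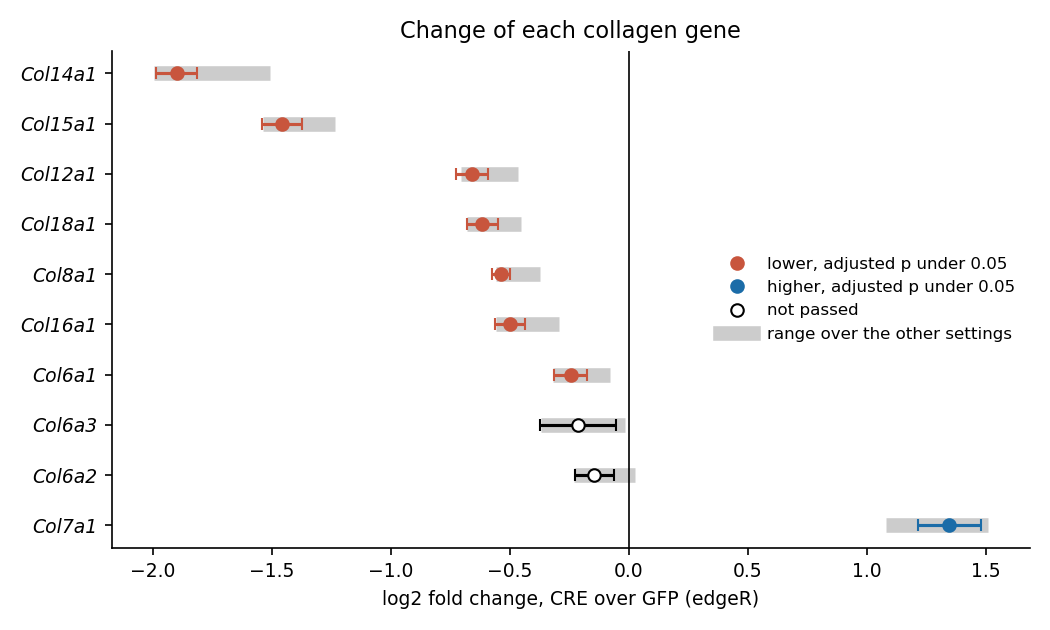
Log2 fold change of CRE over GFP for each collagen gene (point, edgeR) with its standard error (bar) and the range over the other processing settings and left-out libraries (grey band). Changes run from -1.90 for *Col14a1* to 1.35 for *Col7a1*, and of the bands that of *Col6a2* reaches across 0.

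*Col14a1*, *Col12a1* and *Col16a1*, the FACIT genes among the 10, all fell. *Col14a1* (ENSMUSG00000022371; chromosome 15, positions 55307750 to 55520803 in GRCm38, plus strand) codes for collagen XIV, which binds decorin on fibril surfaces. Its CPM values were 81.9, 76.0 and 76.6 in the GFP libraries, in the order of their numbers, and 23.7, 18.0 and 21.1 in the CRE libraries. The groups stood far apart. The log2 fold change was -1.90 (SE 0.09) with an edgeR adjusted p of 2.53e-07, and 0.886% of all tested genes had a log2 fold change as low. *Col12a1* (ENSMUSG00000032332; chromosome 9, positions 79598991 to 79718831, minus strand) codes for collagen XII, a tension-associated partner of collagen I fibrils. It was counted at 1560.4, 1359 and 1332 CPM in the GFP libraries and 897, 842 and 957 CPM in the CRE libraries. Here too the groups stood apart, with a log2 fold change of -0.66 (SE 0.07, edgeR adjusted p of 2.65e-05). *Col16a1* (ENSMUSG00000040690; chromosome 4, positions 130047840 to 130099283, plus strand), coding for collagen XVI, had 283, 241 and 263 CPM in GFP and 196, 182 and 178 CPM in CRE. Its change was smaller, -0.50 on the log2 scale (SE 0.06, edgeR adjusted p of 0.000103), again without overlap of the groups.

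How unequal these falls were was measured inside each library, where scaling plays no part. The log2 ratio of *Col14a1* to *Col12a1* counts was -4.25, -4.16 and -4.12 in GFP and -5.24, -5.55 and -5.50 in CRE. *Col14a1* therefore lost a further 1.25 log2 units relative to *Col12a1*, with no overlap of the libraries. The *Col16a1* to *Col12a1* ratio averaged -2.43 ± 0.08 (SD, n = 3) in GFP and -2.27 ± 0.13 (SD, n = 3) in CRE, and its libraries overlapped. Exact two-sided permutation p was 0.1 for the first ratio, the smallest possible, and 0.2 for the second, and over the 6 ratios compared the adjusted p were 0.2 and 0.3.

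Both multiplexins fell, and by different amounts. *Col15a1* (ENSMUSG00000028339; chromosome 4, positions 47208161 to 47313167, plus strand) codes for collagen XV, which bridges basement membranes and interstitial fibrils in heart and muscle. It went from 216, 171 and 189 CPM in GFP to 76.0, 68.2 and 65.8 CPM in CRE. Even the highest CRE library was far below the lowest GFP library. Its change was -1.46 on the log2 scale (SE 0.09, edgeR adjusted p of 8.03e-07). *Col18a1* (ENSMUSG00000001435; chromosome 10, positions 77052178 to 77166548, minus strand) codes for collagen XVIII, the source of endostatin. Its values were 105, 93.7 and 97.4 CPM in GFP and 61.0, 70.6 and 61.7 CPM in CRE, a change of -0.61 on the log2 scale (SE 0.07, edgeR adjusted p of 3.84e-05). The log2 ratio of *Col15a1* to *Col18a1* counts went from 1.05, 0.87 and 0.95 in GFP to 0.32, -0.05 and 0.09 in CRE. On FPKM values *Col15a1* stood 1.78 ± 0.16 times (SD, n = 3) as high as *Col18a1* in GFP and 1.04 ± 0.13 times (SD, n = 3) in CRE, so that the pair came to lie level. The ratio's exact permutation p was 0.1, adjusted to 0.2.

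Endothelial cells also make multiplexins, and endothelial markers moved with them. Of 8 listed, 7 were lower in CRE and *Kdr* did not pass (adjusted p of 0.0546), with a summed level between 122.6 and 130.0 FPKM in GFP and between 64.8 and 78.1 FPKM in CRE. *Cdh5* and *Pecam1* were at 33.7 and 21.1 FPKM in GFP (means) and 21.2 and 13.2 FPKM in CRE, and *Kdr* stayed under 1 FPKM in every library. Of the fibroblast markers, which include *Col1a1* and *Dcn*, 7 of 8 were lower as well, with the sum going from between 3559 and 3646 FPKM to between 2326 and 2570 FPKM. The part of either in the fall of *Col15a1* and *Col18a1* was not tested, and in these bulk libraries fewer cells of a type cannot be told apart from less RNA per cell. The 3' part of *Col18a1* overlaps *Slc19a1*, a folate transporter on the opposite strand (8825 bases), which also fell by 0.41 on the log2 scale (adjusted p of 0.0135), and reads of the pair may be mixed. The methods name a stranded library kit and the labels another kit, and the strand setting of the counting is not stated.

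Of the remaining collagens *Col7a1* went up and *Col8a1* down. *Col7a1* (ENSMUSG00000025650; chromosome 9, positions 108953586 to 108984875, plus strand) had 18.5, 13.8 and 13.9 CPM in GFP and 43.8, 40.8 and 32.5 CPM in CRE. The lowest CRE library lay above the highest GFP library, and the change was 1.35 on the log2 scale (SE 0.13, edgeR adjusted p of 2.09e-05). As many as 1.92% of tested genes had so high a log2 fold change. *Col8a1* (ENSMUSG00000068196; chromosome 16, positions 57624258 to 57754737, minus strand), coding for the α1 chain of collagen VIII, had the highest level of the 10 genes. Its libraries were also the most alike, at 2249, 2321 and 2319.7 CPM in GFP and 1637, 1561 and 1555 CPM in CRE. The fall of 0.54 on the log2 scale (SE 0.04, edgeR adjusted p of 3.34e-06) was far larger than that spread. Its partner chain *Col8a2*, at a mean of 5.24 FPKM in GFP and 5.63 FPKM in CRE, did not pass (change of -0.06 on the log2 scale, SE 0.09, edgeR adjusted p of 0.620).

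The collagen VI genes changed least. *Col6a1* (ENSMUSG00000001119; chromosome 10, positions 76708792 to 76726168, minus strand), coding for the α1(VI) chain, had 526, 637 and 593 CPM in GFP and 468, 522 and 494 CPM in CRE. The highest CRE and the lowest GFP library nearly met, and the change was -0.24 on the log2 scale (SE 0.07, edgeR adjusted p of 0.0141). Without CRE replicate 1 the adjusted p was 0.0673. With libraries scaled by their size alone the change was -0.08 (adjusted p of 0.354), and on log2(FPKM + 1) values it was also -0.08 (limma adjusted p of 0.421). *Col6a2* (ENSMUSG00000020241; chromosome 10, positions 76595762 to 76623630, minus strand), coding for α2(VI), had 422, 538 and 474 CPM in GFP against 403, 458 and 437 CPM in CRE, and did not pass (log2 fold change of -0.14, SE 0.08, edgeR adjusted p of 0.166). Its sign was positive with library size alone (0.02) and on FPKM values (0.03). *Col6a3* (ENSMUSG00000048126; chromosome 1, positions 90765923 to 90843971, minus strand), coding for the large α3(VI) chain, varied most within groups. It had 30.8, 50.7 and 38.9 CPM in GFP and 29.7, 40.3 and 34.2 CPM in CRE, with a log2 fold change of -0.21 (SE 0.16, edgeR adjusted p of 0.296). For *Col6a2* and *Col6a3*, GFP replicate 1 was the lowest GFP library and GFP replicate 2 the highest. Without GFP replicate 1 they passed, with log2 fold changes of -0.23 and -0.37 (edgeR adjusted p of 0.0119 and 0.0267). The number of lower collagen genes was then 9. Without GFP replicate 2 their changes shrank to -0.05 and -0.01 (edgeR adjusted p of 0.561 and 0.946).

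The chains of collagen VI assemble in a fixed stoichiometry in the cell, and their transcripts were compared by length-corrected level. *Col6a2* transcripts stood at 0.820, 0.865 and 0.818 times those of *Col6a1* in GFP and at 0.881, 0.902 and 0.906 times in CRE (FPKM). All CRE libraries lay above all GFP libraries, and on counts the log2 ratio differed by 0.10 (exact permutation p of 0.1, adjusted to 0.2). *Col6a3* was far rarer than both. Its FPKM was 3.92, 7.99 and 5.85 in GFP and 4.65, 7.68 and 3.93 in CRE, so the mean ratio to *Col6a1* was 0.0432 ± 0.011 (SD, n = 3) in GFP and 0.0421 ± 0.013 (SD, n = 3) in CRE. On counts, neither log2 ratio with *Col6a3* changed beyond the spread between libraries, with exact permutation p of 0.8 against *Col6a1* and 0.7 against *Col6a2*. Of the other α chains that can take the place of α3(VI), *Col6a4*, *Col6a5* and *Col6a6* had at most 3 counts in any library. *Col6a2* and *Col6a1* are neighbours on chromosome 10, 85.2 kb apart on the same strand, and *Col18a1* lies a further 326 kb away. Their changes ran from -0.61 for *Col18a1* to -0.14 for *Col6a2*.

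**Figure D3:**
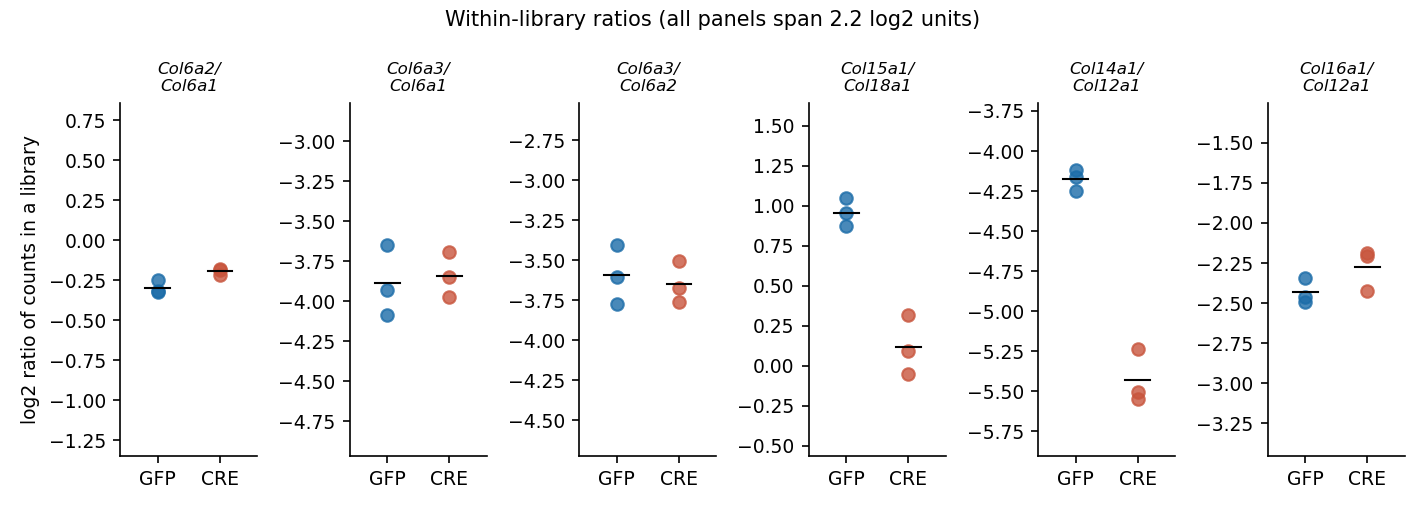
Log2 ratio of the deposited counts of pairs of collagen genes inside each library, 1 point per library and a line at each group mean, with every panel spanning the same range. The *Col14a1*/*Col12a1* and *Col15a1*/*Col18a1* ratios drop by 1.25 and 0.84 in CRE, *Col6a2*/*Col6a1* rises by 0.10, and the other ratios overlap between groups.

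By level per length, *Col8a1* was first in both groups, at 424.8 ± 8.15 FPKM in GFP and 327.8 ± 8.02 FPKM in CRE (SD, n = 3). In GFP, *Col6a1* (134.9 ± 13.1), *Col12a1* (126.3 ± 10.9) and *Col6a2* (112.7 ± 14.0 FPKM) followed, each overlapping the next between libraries. *Col16a1* (56.9 ± 3.92), *Col15a1* (35.1 ± 4.09), *Col18a1* (19.7 ± 0.58) and *Col14a1* (13.8 ± 0.46 FPKM) were then all set apart from their neighbours. *Col6a3* and *Col7a1* came last, with *Col7a1* at 1.58 ± 0.27 FPKM (SD, n = 3). In CRE the lower end of this order closed up. *Col6a3* (5.42 ± 1.99), *Col7a1* (4.46 ± 0.66) and *Col14a1* (4.23 ± 0.60 FPKM) overlapped, as did *Col15a1* (14.3 ± 1.03) and *Col18a1* (13.8 ± 0.98 FPKM). *Col12a1* (91.1 ± 4.90 FPKM) lay below both *Col6a1* and *Col6a2* without overlap.

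**Figure D4:**
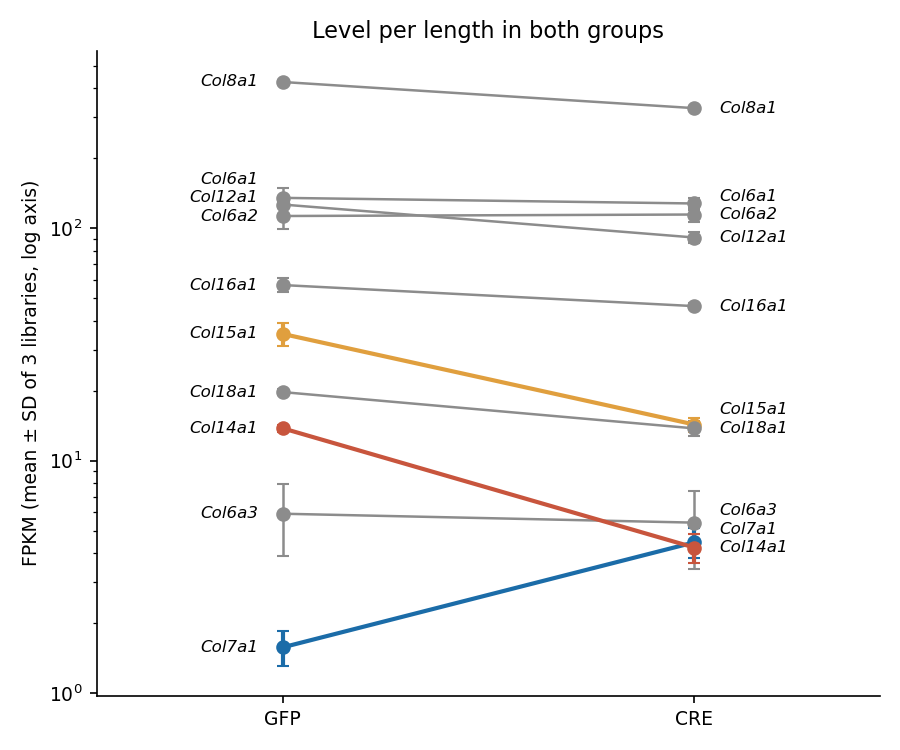
Mean FPKM ± SD of 3 libraries (log axis) of the 10 collagen genes in GFP and CRE, joined per gene, with *Col14a1*, *Col15a1* and *Col7a1* in colour. *Col14a1* drops from 13.8 to 4.23 FPKM and meets *Col7a1*, which climbs from 1.58 to 4.46 FPKM, and *Col15a1* meets *Col18a1*.

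Together the 10 genes took 0.516% ± 0.005 (SD, n = 3) of all gene counts in GFP and 0.404% ± 0.0013 (SD, n = 3) in CRE, which is 78.3% of the GFP share. The groups did not overlap (exact permutation p of 0.1, the smallest possible). The share of the collagen VI genes averaged 0.104% in GFP and 0.102% in CRE and overlapped (exact permutation p of 0.8). The 29 genes found in the table from the lists of fibrillar collagens, collagen IV chains and other collagens of these families went from 4.98% ± 0.07 to 3.24% ± 0.12 (SD, n = 3) of counts. Within the summed FPKM of the 10 genes, *Col8a1* held 45.6% in GFP and 43.8% in CRE, *Col15a1* went from 3.77% to 1.91%, and *Col14a1* from 1.48% to 0.566%.

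Related genes were counted next. Of 62 tested genes out of 74 on 6 lists, 41 were lower and 7 higher in CRE, where 25.7% and 25.5% of all tested genes were. With library size alone 34 were lower and 13 higher, and on log2(FPKM + 1) values 32 and 9, where 1916 of all tested genes were lower and 4976 higher. Fibrillar collagens had a median log2 fold change of -0.65 (8 of 11 lower, 2 higher). *Col1a1*, whose product is the main fibril that FACIT collagens coat, fell by 0.74 on the log2 scale (SE 0.05), the lowest passing value was that of *Col2a1* (-2.31, at 3 to 35 counts) and the highest that of *Col11a2* (1.21, at 16 to 70 counts). Collagen IV chains had a median of -0.41 (4 of 6 lower). Those that passed ran from *Col4a6* (-0.47) to *Col4a5* (-0.12), while *Col4a4*, named here after its values were seen, was at 0.53 with the CPM of all CRE libraries above those of GFP and did not pass (edgeR adjusted p of 0.130). *Col4a5* turned positive with library size alone (0.05) and did not pass when any library other than GFP replicate 1 was left out. Other genes of the families described here were mostly silent: 4 of 13 were tested, and of these *Col20a1*, a FACIT gene, alone passed, rising from 19, 12 and 13 counts to 131, 99 and 82 (2.74 on the log2 scale, SE 0.28, edgeR adjusted p of 2.53e-05).

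Receptors of these collagens were mixed. Of 13 tested, 9 were lower and 2 higher, with a median of -0.28. The higher ones bind collagen VI: *Cspg4*, the NG2 proteoglycan, rose from 388, 206 and 240 counts to 716, 549 and 545 (1.03 on the log2 scale, SE 0.23, edgeR adjusted p of 0.00378), and *Antxr2*, an endocytic receptor, by 0.49 (SE 0.05). *Antxr1*, the related receptor, fell by 0.28 (SE 0.04), but on log2(FPKM + 1) values its change was -0.12 (limma adjusted p of 0.0577). *Itga11*, a collagen-binding integrin of fibroblasts, was the lowest at -0.94 (SE 0.07). *Cspg4* is also on the list of smooth muscle and pericyte markers, of which 4 of 8 were lower and it alone was higher.

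Among 17 tested matrix partners 11 were lower and 2 higher (median of -0.51). *Dcn*, *Hspg2* and *Bgn*, coding for decorin, perlecan and biglycan, had log2 fold changes of -0.80, -0.76 and -0.51. *Lamb3*, coding for a chain of the laminin that collagen VII binds, rose from 5, 8 and 7 counts to 46, 36 and 14 (2.18 on the log2 scale, SE 0.48, edgeR adjusted p of 0.00373). *Lama3*, coding for another laminin chain, did not pass at 7 to 31 counts per library, and the sign of its change depended on the setting. The lowest partner was *Thbs4* (-1.47, at 5 to 23 counts). Of 11 tested proteases and their enhancers 9 were lower and 2 did not pass (median of -0.43), from *Cela1* (-2.16, at 4 to 31 counts) to *Ctsb* (-0.19). *Ctsb* did not pass with library size alone (-0.03, adjusted p of 0.657) or on log2(FPKM + 1) values (-0.03, limma adjusted p of 0.665). *Ctsl*, whose cathepsin releases endostatin, fell by 0.46 (SE 0.06). *Bmp1*, which cuts the C-terminal end of collagen VII, did not pass (0.04, SE 0.05, adjusted p of 0.554), though it did with library size alone (0.20, adjusted p of 0.00812) and on log2(FPKM + 1) values (0.20, limma adjusted p of 0.0185).

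**Figure D5:**
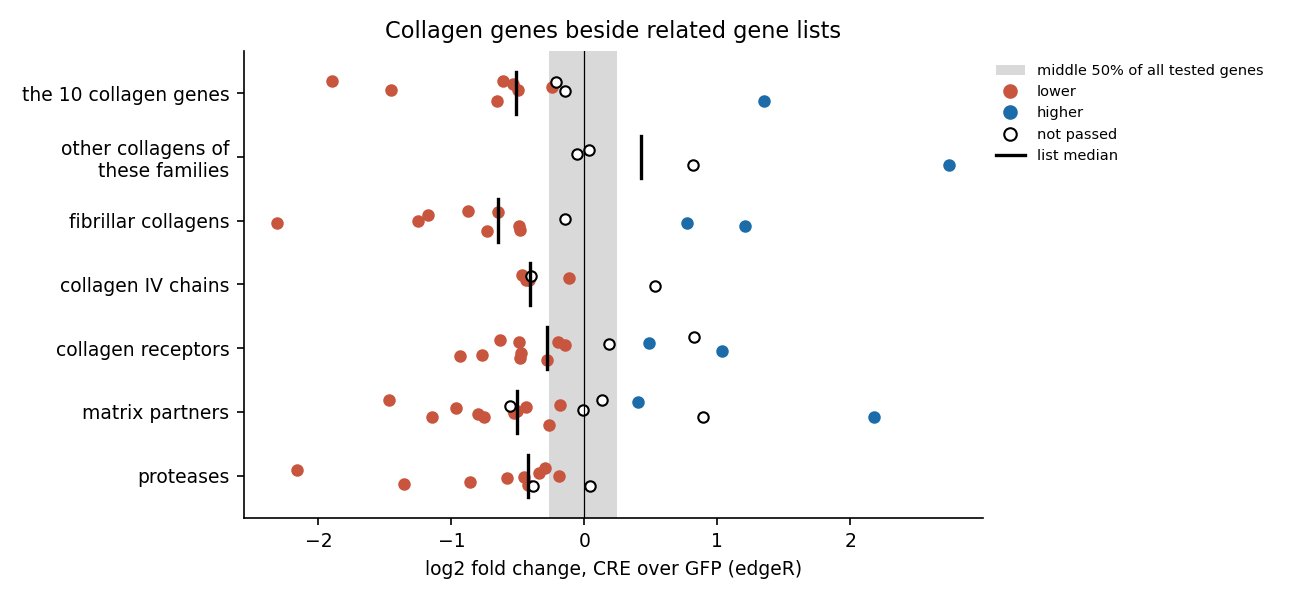
Log2 fold change of CRE over GFP of the 10 collagen genes and of the tested genes of 6 related lists, 1 point per gene, filled where the adjusted p was under 0.05, with a line at each list's median and a grey band over the middle 50% of all tested genes. Medians lie between -0.65 and -0.28 except for the other collagens of these families, of which 4 genes were tested.

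The library profiles most like those of the extreme genes were read over 6 libraries, as a description. *Col14a1* was followed most closely by *Ddah1*, *Cnn3* and *Per3*, with Pearson r of 0.9996, 0.9995 and 0.9993 on log2 CPM, and *Col7a1* by *Ccn1*, *Wapl* and *Fam118b* (0.998, 0.998 and 0.998). Of 8807 genes compared, 1267 exceeded an r of 0.95 with *Col14a1* and 751 with *Col7a1*, since the points share the difference between groups.

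TET3 oxidises 5-methylcytosine, which in mammals lies mostly in CpG dinucleotides, so the CpG content of the promoters was read from RefSeq windows of 300 bases (250 before to 50 after the annotated start, GRCm38.p6). Of the 10 genes 8 had a window, 10 windows in all. *Col12a1* and *Col14a1* had none. To show the promoter of the gene that fell furthest among those with a window beside that of the gene that rose, *Col15a1* (chr4:47207762-47208061, plus strand) and *Col7a1* (chr9:108953336-108953635, plus strand) are given with CpG dinucleotides in capitals.
Col15a1: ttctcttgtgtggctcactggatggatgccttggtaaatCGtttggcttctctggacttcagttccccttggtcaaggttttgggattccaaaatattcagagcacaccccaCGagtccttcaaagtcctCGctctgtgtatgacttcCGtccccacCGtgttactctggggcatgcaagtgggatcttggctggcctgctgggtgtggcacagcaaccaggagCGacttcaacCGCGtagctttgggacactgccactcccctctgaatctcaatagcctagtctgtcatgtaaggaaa
Col7a1: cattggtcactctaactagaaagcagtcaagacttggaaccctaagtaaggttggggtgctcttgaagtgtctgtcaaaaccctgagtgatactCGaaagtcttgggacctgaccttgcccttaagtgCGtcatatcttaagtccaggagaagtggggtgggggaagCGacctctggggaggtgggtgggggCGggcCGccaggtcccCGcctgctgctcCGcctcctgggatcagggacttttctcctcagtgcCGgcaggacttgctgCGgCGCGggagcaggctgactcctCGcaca

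The *Col15a1* window held 8 CpG and the *Col7a1* window 12, against a median of 7 over all 32851 windows. Counts over the other windows ran from 3 in *Col6a1* and *Col6a3* to 24 in *Col16a1*. *Col18a1* has a window at each of its starts, one with 16 CpG (chr10:77166481-77166780) and one with 6 (chr10:77113656-77113955). The count of the gene that rose thus lay inside the range of those that fell. The windows of *Col6a2*, with 16 and 6 CpG, overlap in part. The letters of 6 motifs were also searched on both strands. GGGCGG (Sp1/KLF) was found in 6 of the 10 windows, against 35.7% of all windows, and CAGAC (SMAD box), in 6, against 49.6%. GGAATG (TEAD) was in 2, one of *Col18a1* and one of *Col6a2*, against 14.7%, and TGANTCA (AP-1) in that of *Col6a1* against 7.81%. The palindrome GTCTAGAC and TATAAA were in none of these windows, and in 0.213% and 13.6% of all windows.

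The count divided by the FPKM and the library total gives the transcript length that the table implies. It was 4.10 kb for *Col6a1* and 5.11 kb for *Col8a1* in every library, the length of the 1 coding transcript each has in GENCODE M21, so the FPKM of these genes was their deposited count scaled by length and library total. *Col12a1* shortened from 10.61, 10.59 and 10.61 kb in GFP to 10.47, 10.30 and 10.49 kb in CRE, with no overlap (log2 ratio of -0.02, exact permutation p of 0.1), between its annotated forms of 11.51 and 9.95 kb. Among 9419 genes with at least 100 counts in every library, 15.1% had groups that did not overlap in this measure, and 31.1% had as large a change. *Col18a1* was at 4.72 ± 0.16 kb in GFP and 4.94 ± 0.10 kb in CRE (SD, n = 3) and overlapped. *Col6a3* varied most, between 5.58 and 9.22 kb, with both extremes in CRE libraries.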

How the data were processed

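RNA-seq of 3 GFP and 3 CRE libraries was analysed from 1 table of 22063 genes. According to the study, reads were trimmed (Trimmomatic), aligned to GRCm38.99 (HISAT2) and counted per gene (HTSeq-count), and FPKM are attributed to Cufflinks, though for *Col6a1* and *Col8a1* they equal the deposited counts scaled by length and library total. Tool versions and strand setting are not given in the sources used here. The authors deposited raw counts and FPKM. Their own log2 fold changes, p-values and FDR were deposited too and not used.

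Counts were tested with edgeR 4.0.16 in R 4.3.3 (two-sided quasi-likelihood test, filterByExpr with a minimum count of 10, TMM scaling with factors from 0.944 to 1.06, Benjamini-Hochberg over 12862 genes). SE is the size of the log2 fold change over the square root of F. Ratios used counts + 0.5. Alternatives were RLE, upper-quartile and library size scaling, other filters, DESeq2 1.42.0, limma 3.58.1 on voom or log2(FPKM + 1) and log2(FPKM + 0.1) values, a replicate block, and each library left out. Coordinates are from GENCODE M21.

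The members and lists were chosen with earlier results of these data known. Named were all members, *Tet3*, the lowest and highest passing gene of each related list, list genes with a known tie to a member, and the 3 genes (mean of at least 10 CPM) best correlated with the lowest and with the highest member. Proteins were not shown here, and 1 gene of the matrix partner list is counted but not reported here. Chi-square over degrees of freedom was 4.07 to 12.3 between libraries of a group, so none was a duplicate.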

Additional observations from a re-analysis of the deposited data

Results flagged for a closer look

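The implied transcript length of *Col7a1*, a quantity outside the count comparison, lay above that of the controls in every CRE library. It was 9.23, 9.20 and 9.23 kb in GFP and 9.25 kb in each CRE library, a log2 ratio of 0.0049. The annotated coding transcripts of *Col7a1* measure 9.20 and 9.25 kb, and 56.3% of genes had as large a change.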

How the results depend on the processing

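The 8 collagen genes that passed kept their direction in each of the 16 other fits, and all but *Col6a1* passed in each. The number of lower collagen genes was 6 with library size alone and on FPKM values, 9 with the replicate block, and from 6 to 9 across the left-out libraries, and the number higher was 1 throughout. Scaling by library size alone raised the number of higher genes on the related lists from 7 to 13. *Col6a2* turned to 0.019 with library size alone and to 0.026 on both FPKM scales. *Col4a5* turned to 0.046 and to 0.062 and 0.063. *Lama3* turned to 0.15 with library size alone, 0.0094 with upper-quartile scaling and 0.0095 on log2(FPKM + 1), and ranged from -0.60 to 0.39 across left-out libraries. Across left-out libraries *Bmp1* ranged from -0.0040 (without GFP replicate 1) to 0.082. The cause was not tested beyond the scaling itself. With the replicate block *Col6a2* (-0.14, edgeR adjusted p of 0.0267) and *Col6a3* (-0.20, edgeR adjusted p of 0.0380) passed. The sources do not say whether same-numbered libraries were paired. Correlations of their deviations from the group means, over all tested genes, were 0.05, 0.18 and -0.02, which cannot decide it with 3 libraries per group.

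Of the ratios, *Col6a3*/*Col6a1* turned from 0.049 to -0.051 on FPKM values and ranged from -0.051 to 0.17 across left-out libraries, and *Col6a3*/*Col6a2* ranged from -0.14 to 0.043. The change in the collagen VI share ranged from -0.0085 to 0.0033 percentage points. The implied length of *Col6a3* ranged from -0.097 to 0.266 (log2 ratio). With 3 against 3 libraries the exact tests cannot pass 0.05.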
